A study of Homo sapiens with 31 samples.

Results

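Krüppel-like factors are DNA-binding proteins with 3 zinc fingers at the carboxyl end, which bind GC-rich and CACCC-containing promoter sequences and either activate or repress the gene nearby. In endothelium, KLF2 and KLF4 are the textbook genes of laminar flow, induced through the kinases MAP3K3, MAP2K5 and MAPK7 and the MEF2 factors. In the gut epithelium, KLF5 is known from dividing crypt cells and KLF4 from differentiated and goblet cells, while KLF6, KLF9, KLF10 and KLF11 are known as genes that respond to injury, glucocorticoid or TGF-beta. The data below give 9 members of this family (KLF2, KLF3, KLF4, KLF5, KLF6, KLF9, KLF10, KLF11 and KLF13) in a human intestinal line grown with or without flow and then exposed to metal oxide nanomaterials. A member was taken as the array's probe set whose annotation names that gene and no other. Each of the 9 had exactly 1 such probe set, among 22395 genes represented by their brightest probe set.

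The cells were Caco-2, a line from a human colorectal adenocarcinoma that forms an enterocyte-like layer, at passages 29 to 45 and seeded at 75000 per cm2. They were kept for 21 days either in a microfluidic chip under continuous flow of 100 µL/h, with a shear of about 0.002 dyne/cm2, or on static Transwell inserts. Chips then received 100 µg/mL TiO2, TiO2-control medium, 80 µg/mL ZnO or ZnO-control medium for 6 h, and Transwells received 50 µg/mL TiO2, TiO2-control medium, 10 µg/mL ZnO or ZnO-control medium for 6 h. The controls were the dispersion media without metal. The doses were set by modelling to give the same deposited dose in both systems, so the nominal concentrations differ between them. The upper channel of the chip was filled for about 42 min and flow was then stopped for the 6 h, so the chip arrays describe cells grown under flow and not cells under flow at the time of lysis. Each group had 4 arrays, apart from 3 for Transwell TiO2, which gives 16 chip and 15 Transwell arrays. The labels do not say that arrays of one group came from separate cultures, so p-values measure the spread between these arrays, which may be technical. An array value is an average over all cells of a culture, in which fewer cells with a transcript and less transcript per cell cannot be told apart.

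Values are log2 signals from whole-transcript arrays, normalised by the authors, and a difference of 1 is a doubling. They are comparable between arrays for one gene but not between genes, since probes differ in brightness. The median gene of an array lay between 4.24 and 4.40. KLF3, KLF5, KLF6, KLF10 and KLF11 were far above it, KLF4 and KLF13 were above it on every array, and KLF9 and KLF2 lay near it. KLF2 fell below the median of its own array on 5 of the 16 chip arrays and 5 of the 15 Transwell arrays. A comparison passed when its adjusted p in limma, with 1 mean per group and Benjamini-Hochberg adjustment over all 22395 genes, was below 0.05. Where arrays of groups are said to overlap or stand apart, this describes those arrays only. The share of all genes whose arrays stand apart was not counted.

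The layer carried its labelled identity in all groups. All 9 epithelial markers were above the array median on every array, with a mean level between 8.89 and 9.21. However, 3 of them were higher in the chip (KRT8, KRT18 and KRT20) and 4 were lower (VIL1, CDX2, LGALS4 and CDH17) in the control media. By the same test 14.6% of all genes were higher and 18.9% lower. CDH17 did not pass in TiO2-control medium alone (-0.105, adjusted p = 0.4776), and KRT20 did not in ZnO-control medium alone (0.62, adjusted p = 0.154). None of the 5 measured endothelial markers averaged above the array medians in any group, although CDH5 was above on 3 of the 16 chip arrays and 0 of the 15 Transwell arrays, and CLDN5 on 5 chip and 3 Transwell arrays. Of the 5 measured stromal markers 2 to 3 did, led by LUM, and of the 5 immune markers 2 did, led by CD68, while PTPRC stayed between 1.48 and 1.68. The mean level of the stromal list lay between 3.69 and 4.50 on chip arrays, against 4.26 to 4.47 on Transwell arrays, and that of the immune list between 4.76 and 5.10 on chip arrays, against 4.42 to 4.81 on Transwell arrays. LUM was 0.98 lower and CD68 was 0.64 higher in the chip than on Transwell in the control media, and their part in the results below was not tested. The first principal component, which separated the culture systems, held 42.4% of the variation. Within the chip TiO2 set 2 arrays went against their labels on the third component. The chip TiO2 replicate 4 lay at -14.03, beside the chip TiO2-control replicates 1 to 3 at -19.42 to -14.91, and chip TiO2-control replicate 4 lay at 7.81, toward chip TiO2 replicates 1 to 3 at 16.72 to 20.13. The chip ZnO arrays were also spread on this component, with replicate 1 at -24.54 and replicates 3 and 4 at 25.55 and 23.86. Counts of members that rest on the 2 replicate 4 arrays or on chip ZnO replicate 1 are given with and without them.

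The sequence just before the start of 4 members is shown first, because the family itself binds GC boxes and CACCC boxes. The 4 were taken from the 7 members whose windows were read, as the endothelial flow pair KLF2 and KLF4 and, of the members that were higher in the chip, KLF6 and KLF11, and they are among the GC-rich windows. Each line is the 250 bases before a RefSeq transcript start in GRCh38.p14, read 5′ to 3′ on the strand of the gene, and capitals mark every GC box (GGGCGG or its reverse complement) and CACCC box (or its reverse complement).
KLF2, chr19:16324576-16324825, plus strand: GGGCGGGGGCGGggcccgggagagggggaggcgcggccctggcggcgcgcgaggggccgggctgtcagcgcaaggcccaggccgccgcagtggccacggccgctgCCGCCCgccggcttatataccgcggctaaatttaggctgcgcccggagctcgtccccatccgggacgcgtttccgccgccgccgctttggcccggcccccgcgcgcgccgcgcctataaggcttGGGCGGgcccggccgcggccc
KLF4, chr9:107489770-107490019, minus strand: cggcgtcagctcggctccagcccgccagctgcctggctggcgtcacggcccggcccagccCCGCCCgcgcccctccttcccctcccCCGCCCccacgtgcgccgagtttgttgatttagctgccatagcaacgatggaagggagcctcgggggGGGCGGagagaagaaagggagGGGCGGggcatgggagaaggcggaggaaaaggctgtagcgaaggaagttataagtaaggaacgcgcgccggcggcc
KLF6, chr10:3785210-3785459, minus strand: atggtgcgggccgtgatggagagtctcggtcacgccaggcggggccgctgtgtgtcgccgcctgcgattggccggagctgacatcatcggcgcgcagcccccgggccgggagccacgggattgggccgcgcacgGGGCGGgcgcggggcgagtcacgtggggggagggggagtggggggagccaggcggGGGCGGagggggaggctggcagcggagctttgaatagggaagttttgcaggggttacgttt
KLF11, the second of its 2 starts, chr2:10043971-10044220, plus strand: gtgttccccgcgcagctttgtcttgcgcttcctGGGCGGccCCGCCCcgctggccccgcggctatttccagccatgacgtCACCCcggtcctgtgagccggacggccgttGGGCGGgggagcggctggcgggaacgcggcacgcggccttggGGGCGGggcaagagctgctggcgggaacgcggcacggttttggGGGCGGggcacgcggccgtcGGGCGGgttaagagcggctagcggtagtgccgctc
KLF2 and KLF4 had 4 GC boxes each, KLF6 had 2 and the second KLF11 start had 6, and the only CACCC box among these windows was in KLF11. Of 35116 promoter windows of this length, 42.64% held a GC box and 54.71% a CACCC box, and the median GC content was 58.0%, against 80.0% in KLF2, 69.2% in KLF4, 72.4% in KLF6 and 74.4% in KLF11. The core of the cyclic AMP response site, TGACG, searched on both strands, was found 2 times in KLF4 and 2 times in KLF11, where both matches overlap, and 21.22% of all windows held it. No window of the 7 members that were read held the serum response CArG box, found in 1.16% of windows. The windows not printed differed widely. KLF9 had no GC box, no CACCC box and a GC content of 32.4%. The first KLF5 start had no GC box, 1 CACCC box and 40.8%, and the second had 2 GC boxes, 2 CACCC boxes and 70.8%. The first KLF11 start had 2 GC boxes, no CACCC box and 78.8%, and KLF13 had 3 GC boxes, 1 CACCC box and 78.8%. Of these windows, the second KLF5 start and KLF13 held the TGACG core, 1 time each. A match describes letters only.

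The first comparison asks how the factors differed between cells grown in the chip and on Transwell, before any metal was added. In the mean over both control media, 5 of the 9 members were higher in the chip and 1 was lower. KLF10, KLF11 and KLF6 were about double, KLF4 and KLF9 were higher by about 1.6-fold, KLF5 was slightly lower, and KLF2, KLF3 and KLF13 did not pass. Among all genes 14.6% were higher and 18.9% lower by the same test. The median difference was 0.63 over the members and -0.0037 over all genes. The calls of the 6 members held in every alternative that was run, including the one without both replicate 4 arrays of the chip TiO2 set.

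KLF10, first described as a TGF-beta-induced early gene and a repressor of proliferation in epithelia, differed most. In TiO2-control medium it had 8.76, 9.004, 8.88 and 8.94 on chip arrays, against 7.93, 8.05, 8.31 and 7.89 on Transwell arrays. In ZnO-control medium it had 8.56, 9.02, 8.88 and 9.18 on chip arrays, against 7.19, 7.48, 7.57 and 7.75 on Transwell arrays. All chip arrays were above all Transwell arrays in both media. Over both media KLF10 was 1.13 ± 0.09 higher in the chip (SE, 2.19-fold, adjusted p = 6.24e-11).

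KLF11, the closest relative of KLF10 and likewise a TGF-beta-inducible repressor, was steady across chip arrays. It had 9.03, 9.09, 9.29 and 9.09 on chip arrays in TiO2-control medium, against 8.47, 8.51, 8.58 and 8.62 on Transwell arrays. In ZnO-control medium it had 9.19, 9.45, 9.19 and 9.10 on chip arrays, against 7.59, 7.80, 7.79 and 7.83 on Transwell arrays. The systems did not overlap in either medium, and the gap was wider in ZnO-control medium, where the Transwell values were lower. Over both media the difference was 1.03 ± 0.08 (SE, 2.04-fold, adjusted p = 7.60e-11).

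KLF6, an immediate-early factor of tissue injury that can induce CDKN1A, had 9.15, 9.01, 9.11 and 9.22 on chip arrays in TiO2-control medium, against 7.84, 7.95, 8.04 and 7.81 on Transwell arrays. In ZnO-control medium it had 8.79, 8.77, 8.89 and 9.12 on chip arrays, against 8.21, 8.12, 8.30 and 8.27 on Transwell arrays. Here too no Transwell array reached a chip array, and the gap was the wider one in TiO2-control medium. Over both media KLF6 was 0.94 ± 0.09 higher in the chip (SE, 1.92-fold, adjusted p = 4.34e-09).

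KLF4, a differentiation factor of the colon epithelium and the second flow gene of endothelium, had 5.59, 5.62, 5.28 and 5.76 on chip arrays in TiO2-control medium, against 4.82, 4.60, 4.85 and 4.70 on Transwell arrays. It had 5.29, 5.51, 5.26 and 5.89 on chip arrays in ZnO-control medium, against 4.77, 4.76, 5.10 and 5.03 on Transwell arrays. The systems stood apart in both media. Over both media the difference was 0.69 ± 0.10 (SE, 1.62-fold, adjusted p = 3.97e-06).

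KLF9, a glucocorticoid-induced factor, had 4.99, 4.77, 5.24 and 5.13 on chip arrays in TiO2-control medium, against 4.92, 4.50, 4.16 and 4.68 on Transwell arrays. In ZnO-control medium it had 4.93, 5.09, 4.81 and 5.37 on chip arrays, against 3.96, 4.60, 4.17 and 4.32 on Transwell arrays. The systems overlapped in TiO2-control medium and stood apart in ZnO-control medium, and no chip array but 4 of these 8 Transwell arrays were below their array median. Over both media KLF9 was 0.63 ± 0.14 higher in the chip (SE, 1.55-fold, adjusted p = 0.000419).

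KLF5, which drives proliferation of intestinal crypt cells, went the other way. It had 9.45, 8.97, 9.27 and 9.50 on chip arrays in TiO2-control medium, against 9.56, 9.60, 9.58 and 9.48 on Transwell arrays. With ZnO-control medium KLF5 had 9.47, 9.11, 9.39 and 9.15 on chip arrays, against 9.60, 9.61, 9.67 and 9.48 on Transwell arrays. The chip arrays were the more scattered and lay mostly below the tight Transwell arrays, with overlap in TiO2-control medium and none in ZnO-control medium. Over both media the difference was -0.29 ± 0.08 (SE, 1.22-fold lower, adjusted p = 0.00797).

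KLF2, the classical flow factor of endothelium, did not differ beyond its spread. It had 4.37, 4.31, 4.56 and 4.25 on chip arrays in TiO2-control medium, against 4.73, 4.91, 4.11 and 4.62 on Transwell arrays. With ZnO-control medium KLF2 had 4.15, 4.74, 4.01 and 4.41 on chip arrays, against 4.24, 4.65, 3.97 and 4.91 on Transwell arrays. The arrays of the systems were interleaved. The difference was -0.17, with a 95% interval of -0.49 to 0.15 (adjusted p = 0.47), so a rise of the size seen for KLF4 lies outside the interval, for a probe set near the array median. KLF3, a repressor that recruits CTBP proteins, differed by -0.08 (interval -0.28 to 0.12, adjusted p = 0.622). KLF13, a repressor that recruits SIN3A and is known as an activator of CCL5 in T cells, differed by -0.17 (interval -0.36 to 0.0061, adjusted p = 0.14).

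**Figure D1:**
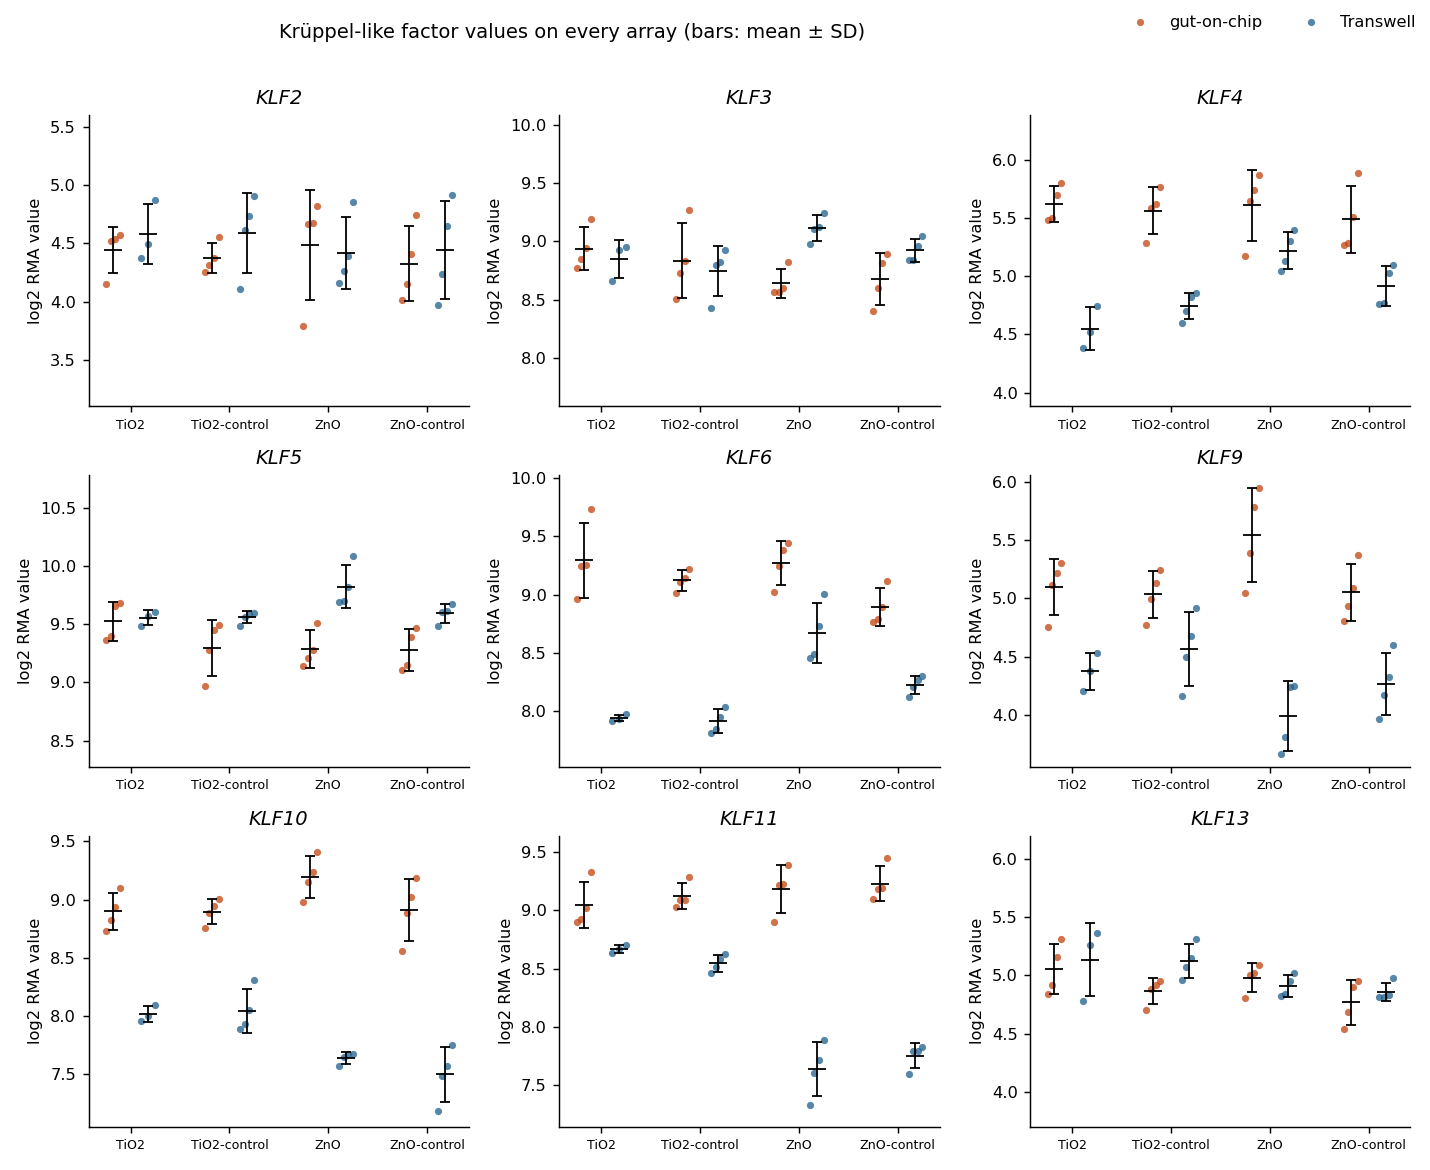
Log2 signal (vertical axis) of the 9 members on all 31 arrays in 9 panels, with each panel spanning the same 2.5 log2 units, chip left of Transwell within each medium, and bars for the group mean ± SD. KLF10, KLF11 and KLF6 are separated by system in all 4 media, KLF4 in 3 of the 4, and KLF2 arrays of the systems mix in every medium.

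The same comparison was then made within each medium. In TiO2-control medium 4 members were higher and 0 lower, where 9.42% and 13.5% of all genes were higher and lower. KLF6 led with 1.21 (adjusted p = 9.34e-08), followed by KLF10 with 0.85, KLF4 with 0.82 and KLF11 with 0.58, and the same count of 4 passed without both replicate 4 arrays. KLF9 differed by 0.47 and did not pass (adjusted p = 0.0777), and it passed when each array was centred on its median (adjusted p = 0.04), over brighter genes only (adjusted p = 0.0426) or without Transwell TiO2-control replicate 1 (adjusted p = 0.0367). In ZnO-control medium 5 members were higher and 0 lower, where 12.3% and 14.9% of all genes were. The order was another one, with KLF11 at 1.48 (adjusted p = 1.49e-10), KLF10 at 1.41, KLF9 at 0.79, KLF6 at 0.67 and KLF4 at 0.57. KLF5 was at the threshold there with -0.31 (adjusted p = 0.0501).

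After TiO2, 5 members were higher in the chip than on Transwell and 0 were lower, against 7.92% and 10.2% of all genes, and 5 passed also without both replicate 4 arrays. KLF6 had 9.25, 9.24, 8.96 and 9.73 on chip arrays, against 7.93, 7.97 and 7.92 on Transwell arrays, and differed most, by 1.36 (adjusted p = 7.48e-08). KLF4 had 5.50, 5.80, 5.70 and 5.48 on chip arrays, against 4.75, 4.52 and 4.38 on Transwell arrays, a difference of 1.07 (adjusted p = 1.47e-05). KLF10 was 0.88 higher (adjusted p = 3.22e-05). KLF9 was 0.72 higher (adjusted p = 0.0128), and this did not pass without Transwell TiO2 replicate 2 (adjusted p = 0.0727). KLF11 had its smallest gap here, 0.38 (adjusted p = 0.0404), and did not pass without any 1 of the 3 Transwell TiO2 arrays (adjusted p = 0.0806, 0.12 and 0.0994), without chip TiO2 replicate 2 (0.155) or without chip TiO2 replicate 3 (0.0631).

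After ZnO, 5 members were higher in the chip and 2 lower, against 13.3% and 16.5% of all genes. KLF9 had 5.95, 5.39, 5.05 and 5.78 on chip arrays, against 4.24, 4.25, 3.67 and 3.81 on Transwell arrays, where all 4 values lay below their array medians. It was 1.55 higher in the chip (adjusted p = 2.30e-07), as were KLF10 with 1.55 (adjusted p = 2.52e-10) and KLF11 with 1.55 (adjusted p = 5.57e-11). KLF10 had 9.15, 8.98, 9.24 and 9.41 on chip arrays, against 7.67, 7.57, 7.67 and 7.64 on Transwell arrays. KLF11 had 9.39, 8.90, 9.22 and 9.23 on chip arrays, against 7.89, 7.72, 7.61 and 7.33 on Transwell arrays. For these 3 members the chip mean was more than double the Transwell mean. KLF6 was 0.60 higher (adjusted p = 0.000767), while KLF5 was 0.54 lower in the chip (adjusted p = 0.000749) and KLF3 0.47 lower (adjusted p = 0.00991), both with arrays that did not overlap. Without chip ZnO replicate 1 there were 6 passing members, KLF4 being the one lost, and KLF9 differed by 1.42, KLF10 by 1.57, KLF11 by 1.48, KLF6 by 0.69, KLF5 by -0.54 and KLF3 by -0.45. KLF4 passed by a small margin with 0.39 (adjusted p = 0.0477), with overlapping arrays, and was lost without chip ZnO replicate 1 (adjusted p = 0.0933), 3 (0.171) or 4 (0.122) and without Transwell ZnO replicate 1 (0.139), 2 (0.0599) or 3 (0.109).

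**Figure D2:**
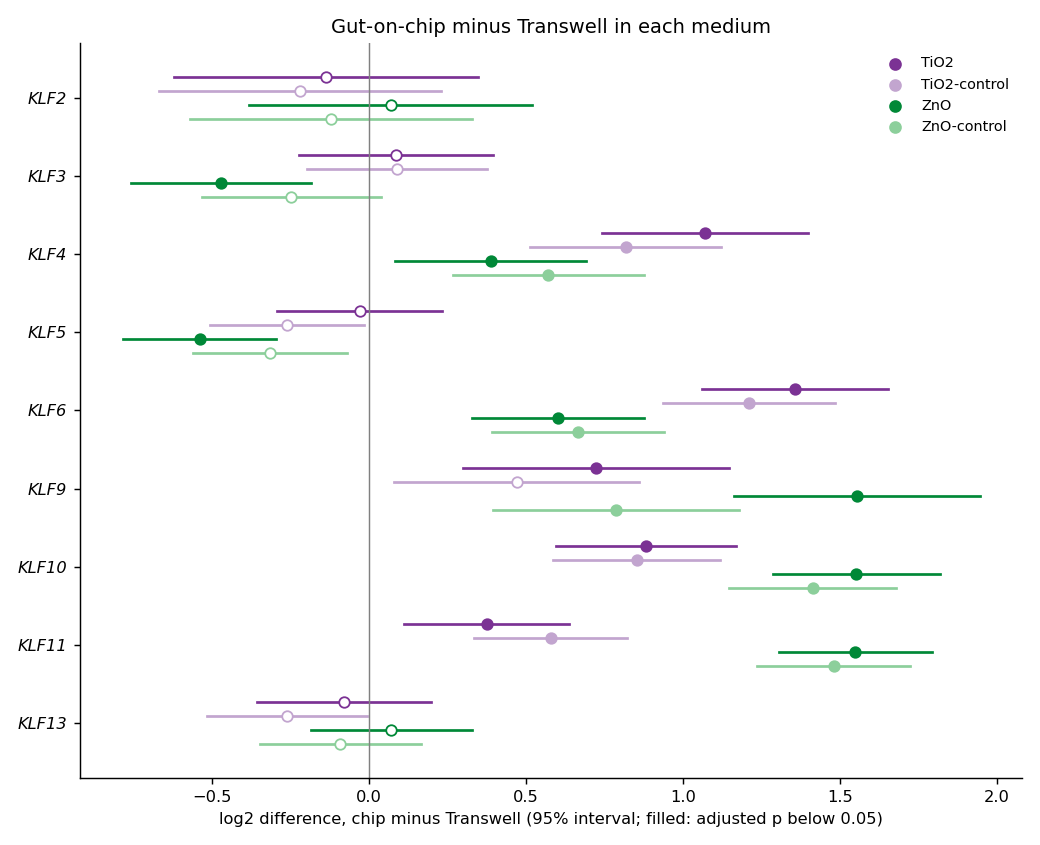
Difference in log2 signal, chip minus Transwell, with its 95% interval for each member in each of the 4 media (filled points passed at an adjusted p below 0.05, hollow points did not). KLF10 and KLF11 sit near 1.5 in the ZnO set, KLF6 above 1.2 in the TiO2 set, and KLF2 crosses 0 in every medium.

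The next comparison asks what the dispersion medium itself did, ZnO-control against TiO2-control, within a system. In the chip 0 members passed and 0.058% of all genes did, with 0 members and 2171 of all genes at an unadjusted p below 0.05. Without both replicate 4 arrays of the chip TiO2 set 388 genes passed (1.73%), and again 0 members. On Transwell 2 members were lower in ZnO-control medium and 0 higher, where 3.76% of all genes were lower and 2.88% higher. KLF11 was 0.79 ± 0.12 lower (SE, adjusted p = 0.000126) and KLF10 was 0.55 ± 0.13 lower (SE, adjusted p = 0.00934), and the array values given above do not overlap for either gene. KLF10 did not pass without Transwell TiO2-control replicate 3 (adjusted p = 0.0518) or without Transwell ZnO-control replicate 1 (adjusted p = 0.0585). KLF6 went the other way with 0.32 higher and an adjusted p of 0.176, and it passed with array weights (0.33, adjusted p = 0.042).

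The test of the difference between systems, chip minus Transwell in ZnO-control less the same in TiO2-control medium, passed for KLF11 with 0.90 ± 0.17 (SE, adjusted p = 0.00318) and for 2.74% of all genes. Without both replicate 4 arrays of the chip TiO2 set KLF11 was still the 1 passing member, with 0.89 (adjusted p = 0.00452), and 3.99% of all genes passed. KLF10 with 0.56 (adjusted p = 0.0959) and KLF6 with -0.54 (adjusted p = 0.121) did not pass. KLF10 passed without chip ZnO-control replicate 1 (adjusted p = 0.0388). Each medium belongs to 1 nanomaterial set, so the medium and any difference between the runs of the sets cannot be told apart.

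Exposure itself moved no member past the threshold. For TiO2 in the chip 0% of all genes passed (1997 at an unadjusted p below 0.05, no member among them), and differences of the members ran between -0.08 for KLF11 and 0.23 for KLF5. Without the 2 replicate 4 arrays of the chip TiO2 set 73 genes passed, which is 0.326%, and still 0 members. For TiO2 on Transwell 0% passed (591 unadjusted, no member), and the members ran between -0.19 for KLF4 and 0.12 for KLF11. KLF11 had 8.71, 8.63 and 8.67 after TiO2, against 8.47, 8.51, 8.58 and 8.62 in TiO2-control medium, with an adjusted p of 1. The difference in response between the systems passed for 0 members and for 0% of all genes (1215 unadjusted, no member), and without both replicate 4 arrays for 1 gene and 0 members. The mean response over both systems, added after the data were seen, also gave 0% and 0 members (1010 genes unadjusted, no member).

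For ZnO in the chip 61 genes passed, which is 0.272%, and 0 members were among them. Without chip ZnO replicate 1 these were 74 genes and 0 members. At an unadjusted p below 0.05 there were 3 of the 9 members, against 2109 of all 22395 genes. KLF9, with 5.95, 5.39, 5.05 and 5.78 after ZnO against 4.93, 5.09, 4.81 and 5.37 in ZnO-control medium, differed by 0.49 ± 0.19 (SE, adjusted p = 0.368), and by 0.36 without chip ZnO replicate 1. KLF6, with 9.02, 9.45, 9.24 and 9.38 after ZnO against 8.79, 8.77, 8.89 and 9.12 in ZnO-control medium, differed by 0.38 ± 0.13 (SE, adjusted p = 0.304), and by 0.46 without chip ZnO replicate 1. The groups overlapped for both genes. KLF10 differed by 0.28 ± 0.13 (SE, adjusted p = 0.486).

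For ZnO on Transwell 0% of all genes passed (835 unadjusted, 1 member). That member was KLF6, with 8.45, 8.73, 8.49 and 9.01 after ZnO, against 8.21, 8.12, 8.30 and 8.27 in ZnO-control medium. The difference was 0.44 ± 0.13 (SE, adjusted p = 1). KLF5 had 9.70, 9.82, 9.69 and 10.09 after ZnO, against 9.60, 9.61, 9.67 and 9.48 in ZnO-control medium, a difference of 0.23 (adjusted p = 1). KLF9 differed by -0.27 and KLF4 by 0.30, with overlapping arrays.

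The difference in ZnO response between chip and Transwell passed for 0 members and for 1 gene (0.00447%), the same counts as without chip ZnO replicate 1. At an unadjusted p below 0.05 there were 1345 genes and 1 member. KLF9 had the largest such difference, 0.77 ± 0.27 (SE, unadjusted p = 0.0084, adjusted p = 0.776), with 0.49 in the chip and -0.27 on Transwell. The mean response over both systems, again added after the data were seen, passed for 12 genes (0.0536%) and 0 members, and without chip ZnO replicate 1 for 15 genes and 0 members. Unadjusted, 1609 genes and 2 members were below 0.05. KLF6 came closest with 0.41 ± 0.09 (SE, unadjusted p = 0.00016, adjusted p = 0.108), and it passed with a spread prior that follows intensity (adjusted p = 0.0464) and over the brighter genes alone (adjusted p = 0.0446).

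**Figure D3:**
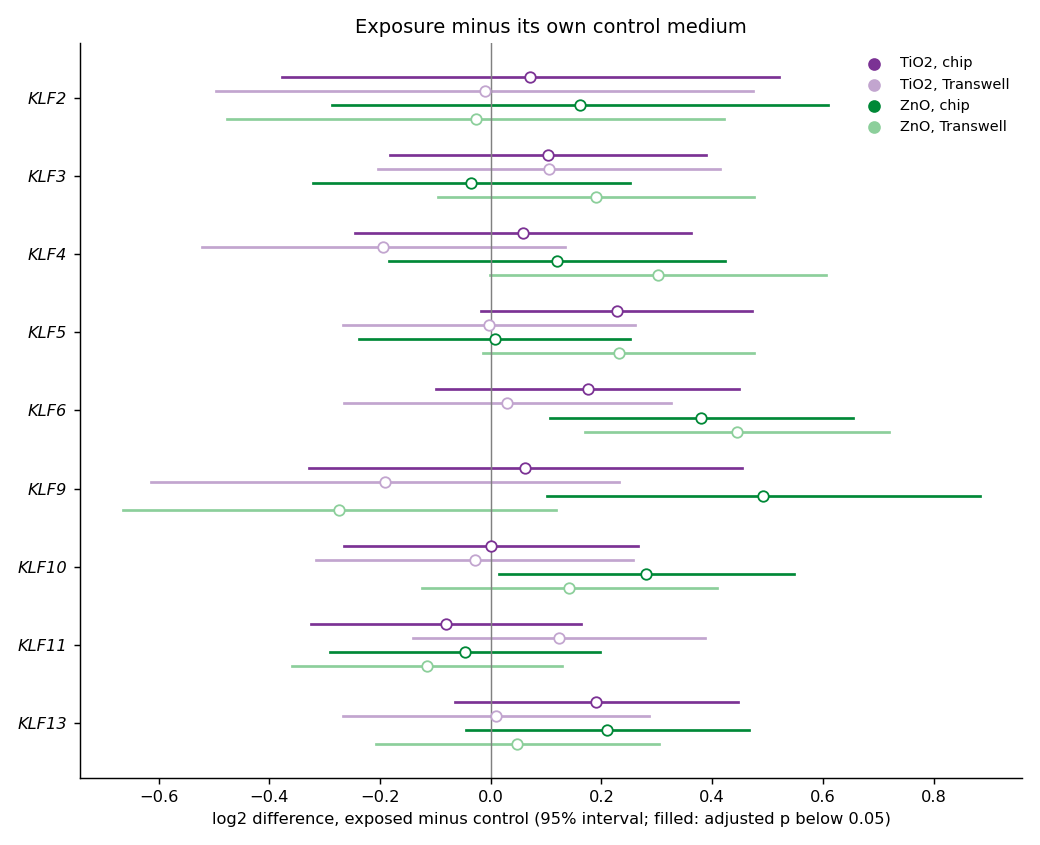
Difference in log2 signal, exposed minus control, with its 95% interval for each member, for TiO2 and ZnO in the chip and on Transwell. All points are hollow, since no member passed, and the ZnO intervals of KLF6 lie above 0 in both systems, at 0.38 in the chip and 0.44 on Transwell.

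Ordering the 8 groups by mean shows how far each member ranged. KLF10 ranged over 1.69, with the 4 chip groups on top between 8.90 and 9.19 and the Transwell groups below between 7.499 and 8.04. The 3 lower chip means, 8.91, 8.90 and 8.90, lay within one another's SD. KLF11 ranged over 1.59, from 9.23 ± 0.15 in chip ZnO-control to 7.64 ± 0.23 in Transwell ZnO (SD, n = 4 each). Its chip means of 9.04 to 9.23 did not differ beyond their spread, and on Transwell the TiO2 set at 8.67 and 8.55 stood above the ZnO set at 7.75 and 7.64.

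KLF9 ranged over 1.55, between 5.54 ± 0.40 in chip ZnO and 3.99 ± 0.30 in Transwell ZnO (SD, n = 4 each). KLF6 ranged over 1.39, between 9.30 ± 0.32 in chip TiO2 and 7.91 ± 0.10 in Transwell TiO2-control (SD, n = 4 each), and its Transwell ZnO mean of 8.67 was the nearest to the chip. KLF4 ranged over 1.07. KLF5 ranged over 0.54, KLF3 over 0.47, KLF13 over 0.36 and KLF2 over 0.27, and the KLF2 range was smaller than the SD of KLF2 within a system (0.31 in the chip and 0.34 on Transwell). The ratio of the SD within groups, chip to Transwell, ran from 0.899 for KLF2 to 1.56 for KLF4 and 1.69 for KLF5. It was 1.003 for KLF13 and 1.028 for KLF9. The same ratio over all genes was not computed, so a wider spread in the chip cannot be called particular to the members.

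Across the 31 arrays, which share the split by culture system, KLF10 and KLF11 followed each other with a Pearson r of 0.90, KLF4 and KLF6 with 0.87, and KLF9 and KLF10 with 0.85. Once group means were removed these were 0.16, 0.14 and 0.12, so the likeness lay in the group means. KLF6 and KLF11 had 0.48 across arrays and -0.55 once group means were removed. KLF5 ran against KLF11 with -0.73.

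The genes of all 22395 most like each member over the same 31 arrays were TXNIP (r = 0.976), TNFRSF12A (0.966) and ZFP36 (0.963) for KLF10. For KLF11 they were PIM1 (0.966), TRIM38 (0.960) and PLEKHM3 (0.959), and for KLF6 they were ETS2 (0.934), EIF2AK3 (0.926) and DUSP1 (0.921). KLF4 was most like NFKBIB (0.903), ETS2 (0.901) and HSPB1 (0.886), and KLF9 most like NEK2 (0.905), EPS8L1 (0.902) and AP2B1 (0.900). KLF5 was most like RSBN1 (0.891), LEMD3 (0.875) and EPC1 (0.843). KLF3 reached 0.810 with DPY19L3, KLF13 0.668 with LNX2 and KLF2 0.645 with GTF2H3. These values describe arrays that differ mainly by system.

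Of 17 other KLF and SP genes measured of 18 listed, 0 were higher and 5 lower in the chip over both control media, with a median difference of -0.04, against 14.6% higher and 18.9% lower over all genes. The 5 were SP5 (-0.96, adjusted p = 4.02e-07), SP8 (-0.95, adjusted p = 0.000291), SP9 (-0.58, adjusted p = 0.00048), KLF7 (-0.75, adjusted p = 0.00067) and SP3 (-0.22, adjusted p = 0.0178). KLF7 averaged 6.44 in the chip and 7.78 on Transwell in TiO2-control medium. In ZnO-control medium its means were 6.10 and 6.26, and it did not pass there (-0.15, adjusted p = 0.7185). SP5 and SP8 are developmental factors of the Wnt pathway. SP8 lay below the array median on all 16 chip arrays and on 6 of the 15 Transwell arrays. KLF1, KLF8, KLF14, KLF15, KLF17 and SP7 lay below it on every array, which limits what their differences can show. On Transwell KLF7 had 6.26 in ZnO-control and 7.78 in TiO2-control medium, a difference of -1.52 (adjusted p = 0.000191), while SP6 was 0.90 higher in ZnO-control medium (adjusted p = 8.60e-05) and SP1 0.35 lower (adjusted p = 0.0148).

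**Figure D4:**
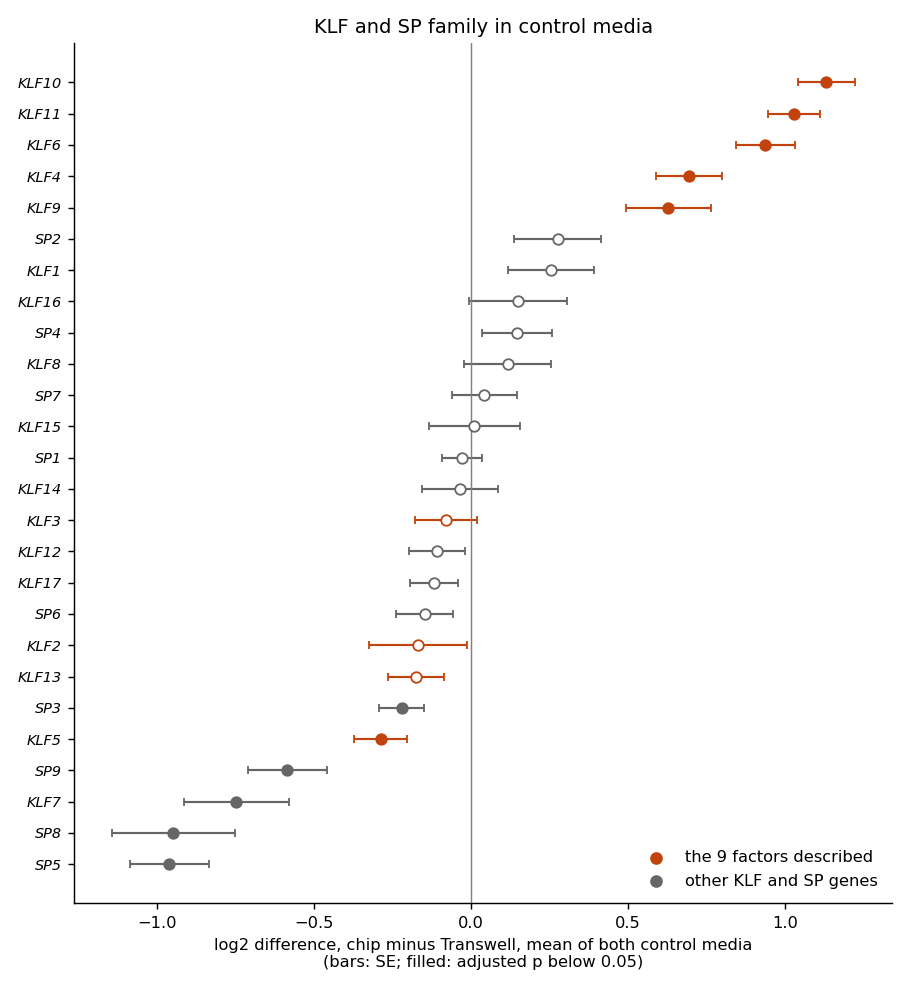
Difference in log2 signal, chip minus Transwell over both control media, with its SE, for the 26 measured KLF and SP genes (filled points passed). The 5 points above 0 that passed are KLF10, KLF11, KLF6, KLF4 and KLF9, and the passing points below 0 are SP5, SP8, KLF7, SP9, KLF5 and SP3.

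Genes around the members were then read from lists chosen by known role, over both control media. In the kinase route that carries flow to KLF2 and KLF4 in endothelium, 2 of 7 measured genes were higher and 2 lower, with a median of 0.21, against 14.6% higher and 18.9% lower over all genes. MEF2D, a factor at the end of the route, was 0.85 higher (adjusted p = 3.03e-08) and the kinase MAP3K3 0.42 higher (adjusted p = 0.00644). The kinases MAPK7 and MAP2K5 were 0.62 and 0.42 lower (adjusted p = 1.27e-05 and 0.00606). The passing genes of the route therefore stood on both sides of 0. Split by medium (TiO2-control, then ZnO-control), MEF2D passed in both (0.50 and 1.19), as did MAPK7 (-0.655 and -0.579). MAP3K3 passed only in ZnO-control medium (0.26 and 0.59, adjusted p = 0.3248 and 0.0095). MAP2K5 passed in neither (-0.43 and -0.41, adjusted p = 0.0669 and 0.0722). On Transwell MEF2D was 0.55 lower in ZnO-control than in TiO2-control medium (adjusted p = 0.0112).

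Of 10 corepressors and coactivators that KLF proteins recruit, 1 was higher and 3 lower, with a median of -0.0057, which is near the 14.6% higher and 18.9% lower over all genes. CTBP2 was 0.66 higher (adjusted p = 0.00393), and KAT2B (-0.81, adjusted p = 2.94e-07), HDAC1 (-0.41, adjusted p = 6.87e-06) and CTBP1 (-0.29, adjusted p = 0.0228) were lower. CTBP2 lay below the array median on 3 of 4 arrays in each chip group and on every Transwell array. Of 4 genes for the turnover of KLF proteins, 1 was higher and 1 lower, with a median of -0.03, against 14.6% higher and 18.9% lower over all genes. The ubiquitin ligase SMURF1 was 0.96 higher (adjusted p = 1.18e-11) and WWP1, a ligase for KLF2 and KLF5, was 0.31 lower (adjusted p = 0.00186). WWP1 averaged 8.30 in the chip and 8.35 on Transwell in TiO2-control medium, against 8.10 and 8.67 in ZnO-control medium.

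In the TGF-beta route, which induces KLF10 and KLF11, 3 of 11 measured genes of 12 listed were higher and 1 lower, with a median of 0.07, against 14.6% higher and 18.9% lower over all genes. The ligand TGFB1 averaged 8.66 in chip TiO2-control and 8.81 in chip ZnO-control, against 7.75 in Transwell TiO2-control and 7.27 in Transwell ZnO-control, and was 1.23 higher in the chip (adjusted p = 9.36e-12). TGFB2 was 2.34 higher (adjusted p = 5.89e-10), from below the array median on every Transwell array. SKIL, a feedback repressor of SMAD signalling, was 0.47 higher (adjusted p = 0.000799). SKIL averaged 7.09 in the chip and 6.27 on Transwell in TiO2-control medium. In ZnO-control medium its means were 7.01 and 6.89, and it did not pass there (adjusted p = 0.6355). TGFB3, mostly below array medians, was 0.57 lower (adjusted p = 0.000941).

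In the glucocorticoid route, which induces KLF9, 3 of 6 measured genes of 7 listed were higher and 2 lower, with a median of 0.35, against 14.6% higher and 18.9% lower over all genes. The receptor NR3C1 was 1.31 lower in the chip (adjusted p = 5.79e-11). Of its known targets, DUSP1 was 1.49 higher (adjusted p = 9.16e-10) and PER1 1.72 higher (adjusted p = 1.82e-09), while SGK1 was 0.88 lower (adjusted p = 1.93e-08). ZBTB16, also on this list, lay below the array median on 3 of 4 chip ZnO-control arrays and on every array of the other groups. TSC22D3, another gene of the list, lay below it on every array and did not pass in ZnO-control medium (0.22, adjusted p = 0.2323). DUSP1, a phosphatase of stress kinases, was also the only gene of these lists to pass for ZnO in the chip, with 0.96 ± 0.20 (SE, adjusted p = 0.0281).

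Of 15 genes reported as targets of these factors, 8 were higher and 1 lower, with a median of 0.36, against 14.6% higher and 18.9% lower over all genes. The list was not split into genes that the factors activate and genes that they repress. The counts therefore do not show whether targets follow their factors. EGR1, an immediate-early factor, averaged 9.49 and 9.66 in the chip control media (TiO2-control and ZnO-control), against 8.30 and 7.53 in the Transwell control media, and was 1.66 higher (adjusted p = 3.99e-12). TGFB1, given above, is on this list too. The cyclin CCNE1 was 0.69 higher (adjusted p = 9.03e-07) and ODC1, of polyamine synthesis, 0.55 higher (adjusted p = 1.16e-06). The count also includes NOS3, an endothelial flow target of KLF2, which averaged 5.09 and 5.42 in the chip control media (TiO2-control and ZnO-control), against 3.50 and 3.79 in the Transwell control media, where it lay below the array median on every array. THBD and S1PR1, on the same list, lay below the array median on every array of both systems. THBD averaged 2.62 and 2.68 in the chip control media, against 3.35 and 2.73 on Transwell. For S1PR1 the means were 2.50 and 2.52 in the chip, against 2.38 and 2.32. ALPI was 0.78 lower in the chip in ZnO-control medium (adjusted p = 0.03145), with means of 7.41 in the chip and 8.20 on Transwell. In TiO2-control medium the ALPI means were closer, 8.15 in the chip and 8.39 on Transwell. EGR1 was also lower by 0.77 in ZnO-control than in TiO2-control medium on Transwell (adjusted p = 0.0043), as was TGFB1 by 0.48 (adjusted p = 0.0207). Of the other TGF-beta route genes that passed between these media, SKIL was 0.62 higher (adjusted p = 0.012) and SMAD4 0.37 lower (adjusted p = 0.0148) in ZnO-control medium.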

How the data were processed

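RNA from Caco-2 cells was labelled from 100 ng and hybridised to Affymetrix whole-transcript arrays, 31 in all. The authors deposited log2 values for 53617 probe sets, normalised by RMA per the submitters' processing notes, with no version given. The files name no genome build. Of the probe sets, 23871 name 1 gene, 1842 several and 27904 none. Symbols were updated by gene ID through a RefSeq table for GRCh38.p14 (22569 of 23871 matched), and each gene was represented by its brightest probe set (highest mean of the 31 arrays), giving 22395 genes. The number of arrays limits the precision. limma 3.58.1 in R 4.3.3 was fitted with 1 mean for each of 8 groups of culture system and medium (23 residual degrees of freedom), without block or trend, in 16 comparisons. The script was tested on simulated data. Promoter sequences are from RefSeq and were read for 7 of the 9 members. KLF3 had no entry, and KLF10, on chromosome 8, was left out. All 9 members are reported in every comparison. Genes named from each list are up to 4 with the smallest p among those that passed, TGFB1 counting in 2 lists. SP3, NOS3, THBD, S1PR1, ALPI, TSC22D3, the epithelial markers and genes named only for a low level fall outside that rule. They were picked after their values were seen. The members and lists were chosen with earlier results of these data known.

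Groups came from the labels. Whether same-numbered arrays pair was checked by the correlation of their deviations from group means, which for exposed and control arrays of 1 system and set ran between -0.1261 and 0.0594 over 15 pairs, none over 0.1, so the numbers were not used as pairs. Alternatives changed the spread prior, array weights, arrays in the fit, the filter on dim genes, the row per gene, the scaling, the replicate block and each array in turn.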

Additional observations from a re-analysis of the deposited data

Results flagged for a closer look

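In 5 of the 63 sets of 4 arrays tested, 1 array of a member stood far from the other 3, where chance gives about 1 in 20. KLF2 had 4.15 on chip TiO2 replicate 4 and 3.79 on chip ZnO replicate 1, both below the others. KLF3 had 8.83 on chip ZnO replicate 4, above the others. On Transwell ZnO-control replicate 1, KLF11 had 7.59, below the others, and KLF13 had 4.98, above them. The KLF11 gap between chip and Transwell was 0.90 wider in ZnO-control than in TiO2-control medium, by the test of that difference (limma, adjusted p = 0.00318).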

How the results depend on the processing

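Of 3096 member values recomputed under alternatives, 3062 stayed on the same side of the threshold with the same direction, 20 no longer passed, 14 newly passed and 0 reversed. Of 344 recomputed counts of passing members 33 differed from the count reported, 32 of them by 1 member, and 7 differed by more than 1.5 times. For the mean ZnO response, 1 member passed with an intensity trend and 1 over brighter genes only, against 0. For the medium difference between systems, 2 passed over brighter genes only, against 1, and leaving out 1 array gave 1 to 2. Leaving out 1 array gave 1 to 2 members, against 2, for ZnO-control against TiO2-control on Transwell, and 3 to 5, against 5, for chip against Transwell after TiO2. The cause was not tested. Under the replicate block 6 members still passed in the control media, and no count of passing members changed. With the replicate block within each set KLF11 after TiO2 no longer passed (adjusted p = 0.0644), and comparisons between sets within 1 system could not be estimated. KLF5 in ZnO-control medium passed with an intensity trend (adjusted p = 0.0267), array weights (0.0304) and brighter genes only (0.0234). The mean of several probe sets cannot alter members with 1 each. Signals near the array median limit what a difference there can show. This holds for KLF2 and KLF9 on Transwell, and for KLF4 after TiO2 on Transwell (mean 4.55, lowest array 4.38).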
